A study of Bos taurus with 8 samples.

Results

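CXCL8, CXCL2, CXCL3 and CXCL5 are secreted proteins that attract neutrophils from blood into inflamed tissue, and their mRNAs were followed here in bovine peripheral blood mononuclear cells (PBMCs) exposed to lipopolysaccharide (LPS). The 4 genes were chosen by name and make up 4 of the 21861 genes listed in the single-cell RNA sequencing (scRNA-seq) tables. Their level was read in each library and in cell classes gated on the raw counts of CD14, CSF3R, CD3E and MS4A1, with the level in CD3E and MS4A1 cells as the lymphocyte background. The same Ensembl identifiers were looked up in the tables of single-cell chromatin accessibility (scATAC-seq).

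The blood came from 4 lactating Holstein cows of 2 years, was pooled, and was divided into 4 parts. The part called no LPS received none. The other parts stood with LPS at 2 µg/ml, one for 2 h, another for 4 h and the last for 8 h. PBMCs were isolated after the treatment of whole blood, so neutrophils and other blood cells were present during it. From each part 1 library was made per assay, no incubation time is given for no LPS, and library, time and LPS cannot be told apart in any comparison below. No test was possible, and every interval given is a 95% interval that covers counting error only.

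Chemokines of the CXC family with a glutamate-leucine-arginine motif bind the receptors CXCR1 and CXCR2 on neutrophils. LPS, a component of the outer membrane of Gram-negative bacteria, is recognised by CD14 and TLR4 on monocytes, and the signal reaches the NF-kB transcription factors, which act on the promoters of these chemokine genes. Their mRNAs carry AU-rich elements that mark them for rapid decay. Monocytes and neutrophils themselves are known sources of CXCL8, and CXCL5 is known mainly from epithelial cells and platelets in other species.

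In the files CXCL8 is ENSBTAG00000019716, CXCL2 is ENSBTAG00000027513, CXCL3 is ENSBTAG00000037778 and CXCL5 is ENSBTAG00000009812. A neighbouring gene named GRO1, the older symbol of CXCL1 in human, is ENSBTAG00000037558 and is given beside them. In the RefSeq annotation of the ARS-UCD2.0 assembly all 4 members lie on 1 chromosome. Their order there is CXCL8, LOC534181, CXCL5, PPBP, PF4, CXCL2, 2 non-coding genes, CXCL3 and GRO1. No coordinates are given, since the authors used the ARS-UCD1.2 assembly. CXCL2, CXCL3 and GRO1 are closely related paralogs, and reads that fit more than 1 of them may have been lost or divided, so the split of reads among them is uncertain.

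After filtering, 28484 cells were left, from 3411 at 8 h to 9865 at 2 h, with 16657841 to 47875879 UMIs per library (a UMI marks 1 captured mRNA molecule at its 3′ end, whatever the length of the mRNA). Cells with at least 2 CD14 UMIs and none of CD3E or MS4A1 are called CD14-gated. They numbered 708, 308, 119 and 67 in no LPS, 2 h, 4 h and 8 h, which is 9.05%, 3.12%, 1.61% and 1.96% of the cells. CSF3R-gated cells, with CSF3R but none of the other 3 markers, numbered 51, 105, 88 and 33 in the same order. Any 2 libraries shared between 8 and 24 cell barcodes.

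The CD14-gated cells carried the monocyte markers. Of 10 monocyte genes, 10, 9, 8 and 8 were found in at least 10% of these cells in no LPS, 2 h, 4 h and 8 h, with a summed level of 10040, 6937, 7295 and 9972 CPM (the UMIs of a gene scaled to the same total of 1e+06 UMIs in each class). Of 10 neutrophil genes, 4, 4, 4 and 3 were found in at least 10% of them, with summed levels of 13707, 9059, 11810 and 16657 CPM that came mostly from S100A12 and S100A9, calcium-binding proteins that monocytes share. MPO and CAMP, which define neutrophil granules, were at 0 in the CD14-gated cells of all 4 libraries, and in CSF3R-gated cells as well apart from 1 CAMP UMI at 2 h, so they do not separate the gates. The receptors CSF3R and CXCR1 did move, since a CSF3R UMI was found in 5.37%, 14.9%, 28.6% and 10.4% of CD14-gated cells and a CXCR1 UMI in 2.26%, 10.4%, 26.1% and 4.48%. CSF3R-gated cells had a CXCR1 UMI in 68.6%, 51.4%, 56.8% and 66.7% of cells and no UMI of CSF1R, LYZ or CD163 in any library. The same monocyte list nevertheless had 5, 4, 5 and 4 of its 10 genes in at least 10% of CSF3R-gated cells, with summed levels of 21315, 5524, 2761 and 10991 CPM, above those of CD14-gated cells in no LPS and at 8 h. TYROBP was found in 84.3% of CSF3R-gated cells in no LPS, S100A8 in 56.9%, CD68 in 52.9% and FCN1 in 43.1%. Their neutrophil list summed to 61003 CPM in no LPS and to 8999, 5173 and 17480 CPM at 2 h, 4 h and 8 h. Most of this again came from S100A12 and S100A9, which had 29533 and 29701 CPM in no LPS. In these CSF3R-gated cells 5, 4, 4 and 4 of the 10 neutrophil genes were found in at least 10% of cells. Their median depth was low, 1061, 1399, 1424 and 1715 UMIs, against 9876, 12608, 10015 and 9352 in CD14-gated cells, so levels are compared as shares of the UMIs. CD14 itself set the gate, and its level within it was 2307, 1403, 1821 and 1930 CPM. The upper limit of 3000 genes left out 11.3%, 10.2%, 13.1% and 25.6% of the cells that would have passed the CD14 gate. The part of these values in the results below was not tested, and the cells are called by their gate and not by a cell type.

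In CD14-gated cells the 4 chemokine mRNAs were among the most abundant of all mRNAs. Together they made up 13.4% of all UMIs of these cells in no LPS and 18.3% at 2 h, then 17.6% at 4 h and 16.3% at 8 h. CXCL5 ranked 1 among all genes in each of the 4 libraries, and CXCL2 ranked 4, 2, 3 and 3. CXCL8 stood at rank 8 in no LPS and at ranks 5, 5 and 6 under LPS, and CXCL3 at rank 15 and then 7, 10 and 9.

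CXCL8 (interleukin 8), the best known neutrophil attractant, had the largest log2 ratio to no LPS of the 4 members at each time in CD14-gated cells, while CXCL2 had the larger difference in CPM. Its level was 9123 CPM (9051 to 9195) in no LPS and 25482 (25317 to 25648) at 2 h, then 24264 (23980 to 24550) at 4 h, and last 15336 (15035 to 15642) at 8 h. All 3 LPS libraries lay above no LPS, with 2 h highest, 4 h close under it and 8 h between them and no LPS. The order of 2 h and 4 h depends on the gate. It turned with CD14 at least 1 UMI, and also with cells carrying lymphocyte markers allowed. The log2 ratio to no LPS was 1.48 (1.467 to 1.497), 1.41 (1.39 to 1.43) and 0.75 (0.72 to 0.78).

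CXCL2, a ligand of CXCR2, was second in level after CXCL5. It had 34462, 66619, 56775 and 46139 CPM in no LPS, 2 h, 4 h and 8 h, with log2 ratios of 0.95 (0.94 to 0.96), 0.72 (0.71 to 0.73) and 0.42 (0.40 to 0.44). CXCL3, a close relative of CXCL2 that binds the same receptor, had 7213, 17475, 11013 and 10316 CPM, with log2 ratios of 1.28 (1.26 to 1.29), 0.61 (0.58 to 0.64) and 0.52 (0.48 to 0.55). In summed level both were highest at 2 h and lower at each later time, and both stayed above no LPS at 8 h. The median over single cells at 8 h lay under no LPS for both. It was 2.59% against 3.02% of a cell's UMIs for CXCL2 and 0.405% against 0.534% for CXCL3. The mean over cells stayed above, with 4.00% against 3.36% and 0.783% against 0.679%, so no direction is given for the typical cell at 8 h.

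CXCL5, another CXCR2 ligand, behaved unlike the other members. Its level was 83095 CPM (82878 to 83313) in no LPS and 73471 (73190 to 73752) at 2 h, then 83904 (83376 to 84435) at 4 h, and last 91006 (90270 to 91748) at 8 h. The log2 ratios were −0.18 (−0.18 to −0.17), 0.01 (0.00 to 0.02) and 0.13 (0.12 to 0.14), which is a fold of 0.884, 1.01 and 1.10. The sign at 2 h depends on the scaling, as the median of all genes also lay under 0 in these cells, and it was 0.32 with TMM scaling and 0.38 with DESeq2 size factors. The signs at 4 h and 8 h also turned under other gates, between −0.23 and 0.20 at 4 h and between −0.34 and 0.23 at 8 h, so no direction is given for CXCL5 in CD14-gated cells.

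**Figure D1:**
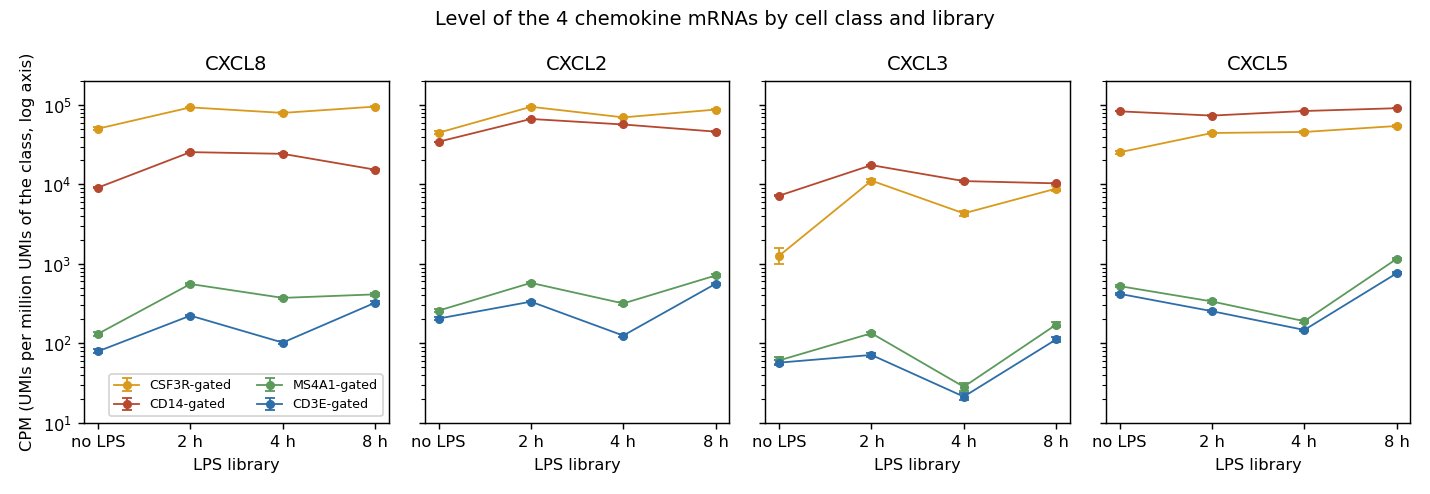
CPM of each member (log axis) in the 4 libraries for CSF3R-gated, CD14-gated, MS4A1-gated and CD3E-gated cells. Points are summed UMIs of 1 library and class and bars are 95% Poisson intervals. CXCL8 was highest in CSF3R-gated cells and CXCL5 in CD14-gated cells in all 4 libraries, and the lymphocyte classes lay far below both.

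Against the other genes of the CD14-gated cells, 2 of the 4 members (CXCL8 and CXCL3) were at least 2-fold higher at 2 h, 1 (CXCL8) at 4 h and none at 8 h. At 2 h CXCL2 also passed, making 3 members, with TMM scaling (1.45), DESeq2 size factors (1.51), the members left out of the totals (1.08) or the mean of single cells (1.06). Among all genes with at least 50 UMIs the share at least 2-fold higher was 4.43% of 6112 genes at 2 h, 5.36% of 5822 at 4 h and 3.51% of 5704 at 8 h. No member was at least 2-fold lower, where the shares were 20.1%, 10.6% and 6.12%. The excess of lower genes came with a shift of the whole distribution, since the median log2 ratio of all genes was −0.54, −0.18 and −0.06 beside a median of 1.11, 0.67 and 0.47 for the 4 members. With TMM scaling the median moved to −0.07, −0.01 and −0.02, and of the genes past 2-fold the share that was higher moved from 18.1%, 33.6% and 36.4% to 52.7%, 48.9% and 41.1%. Relative to the median of all genes, CXCL8 stood 2.02, 1.59 and 0.81 higher on the log2 scale, CXCL2 1.49, 0.90 and 0.48, CXCL3 1.82, 0.79 and 0.57, and CXCL5 0.36, 0.20 and 0.19. CXCL8 was at rank 136 of the tested genes by its log2 ratio at 2 h and 159 at 4 h, so many other genes had larger ratios.

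In CSF3R-gated cells all 4 members were above no LPS in CPM at all 3 times. Their summed share was 12.2% of the UMIs in no LPS and 24.4% at 2 h, then 19.9% at 4 h and 24.6% at 8 h. CXCL8 had 50330 CPM in no LPS and 93201, 79423 and 95355 CPM at 2 h, 4 h and 8 h. The 2 h and 8 h values overlapped in their intervals (91777 to 94641 and 93119 to 97631), and 4 h lay under both. Its log2 ratio to no LPS was 0.89 (0.83 to 0.94), 0.66 (0.60 to 0.71) and 0.92 (0.86 to 0.98). CXCL8 or CXCL2 was the most abundant mRNA of these cells in every library.

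CXCL2 followed CXCL8 closely here, with 44735, 94816, 69804 and 87443 CPM and log2 ratios of 1.08 (1.03 to 1.14), 0.64 (0.58 to 0.70) and 0.97 (0.90 to 1.03). CXCL5 had 25371, 44367, 45710.3 and 54347 CPM, with log2 ratios of 0.81 (0.73 to 0.88), 0.85 (0.77 to 0.93) and 1.10 (1.016 to 1.183), and its 2 h and 4 h values overlapped. It thus stood above no LPS in CSF3R-gated cells at 2 h, where it stood under no LPS in CD14-gated cells in CPM but not with TMM or DESeq2 scaling. These scalings were not applied to CSF3R-gated cells.

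CXCL3 had the widest range of the 4 members in CSF3R-gated cells. It had only 83 UMIs in no LPS, or 1265 CPM (1008 to 1569), and 11156, 4323 and 8851 CPM at 2 h, 4 h and 8 h, from 1955, 667 and 641 UMIs. The log2 ratios were 3.14 (2.82 to 3.47), 1.77 (1.44 to 2.12) and 2.81 (2.47 to 3.15), and 4 h was again the lowest of the LPS libraries. A CXCL3 UMI was found in 27.5% of these cells in no LPS and in 74.3%, 60.2% and 72.7% under LPS. Of the 83 UMIs in no LPS, 87.95% lay in the 10% of cells that held most.

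At least 2-fold higher in CSF3R-gated cells were 2 members at 2 h (CXCL2 and CXCL3), 1 at 4 h (CXCL3) and 2 at 8 h (CXCL3 and CXCL5). The share of all tested genes past this fold was 14.6% of 507 genes, 20.5% of 541 and 13.2% of 371, which is larger than in CD14-gated cells and rests on few cells. The median log2 ratio of all genes was −0.44, 0.03 and −0.23, beside 0.99, 0.75 and 1.03 for the 4 members.

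**Figure D2:**
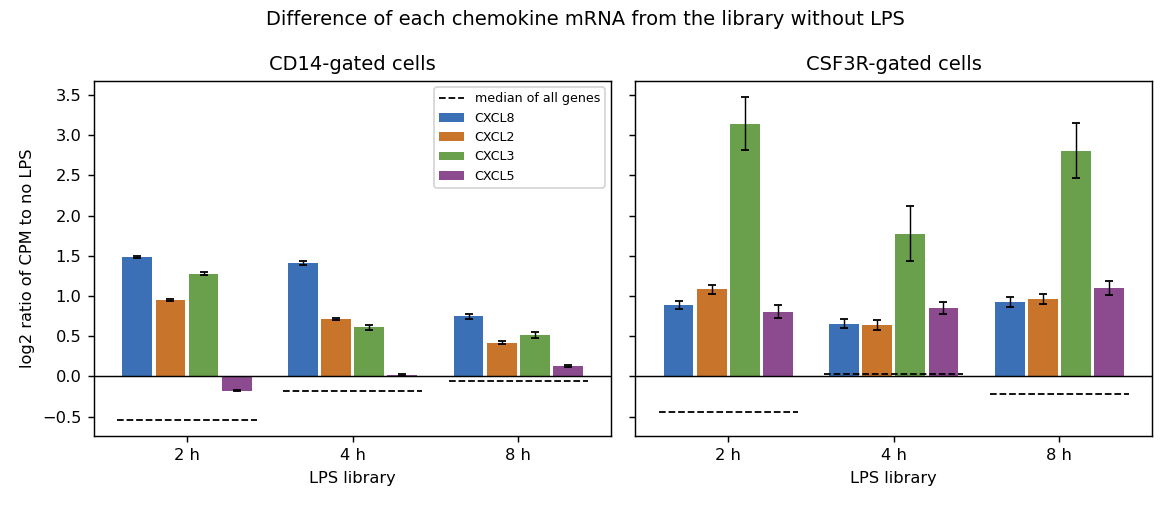
Log2 ratio of CPM to no LPS for each member at 2 h, 4 h and 8 h in CD14-gated cells (left) and CSF3R-gated cells (right). Bars carry 95% counting intervals and the dashed lines are the median of all genes tested, −0.54 in CD14-gated cells at 2 h. CXCL8 leads in CD14-gated cells and CXCL3 in CSF3R-gated cells, and the bar of CXCL5 at 2 h in CD14-gated cells turns positive with TMM (0.32) or DESeq2 (0.38) scaling.

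The mixture of the 4 mRNAs differed between the classes. In CD14-gated cells CXCL5 made up 62.1%, 40.1%, 47.7% and 55.9% of the members' UMIs in no LPS, 2 h, 4 h and 8 h, while in CSF3R-gated cells its share was 20.8%, 18.2%, 22.9% and 22.1%. CXCL8 took 6.81%, 13.9%, 13.8% and 9.42% in CD14-gated cells and 41.4%, 38.3%, 39.9% and 38.8% in CSF3R-gated cells. For each CXCL8 UMI there were 9.11, 2.88, 3.46 and 5.93 CXCL5 UMIs in the CD14 gate and 0.504, 0.476, 0.576 and 0.570 in the CSF3R gate. The 2 classes thus did not overlap in this ratio in any library, and in the CD14 gate the ratio was lowest at 2 h and higher at each later time. The same contrast as levels gave a log2 ratio of CSF3R-gated over CD14-gated cells of 2.46, 1.87, 1.71 and 2.64 for CXCL8 and of −1.71, −0.73, −0.88 and −0.74 for CXCL5. CXCL2 gave 0.38, 0.51, 0.30 and 0.92, and CXCL3 gave −2.51, −0.65, −1.35 and −0.22.

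Within the CD14 gate, cells with a CSF3R UMI had more CXCL8 under LPS. At 2 h CXCL8 had 44955 CPM in the 46 CD14-gated cells with a CSF3R UMI and 23318 CPM in the 262 without, and at 4 h 37264 CPM in 34 cells and 21209 CPM in 85. In no LPS the values were 9294 CPM in 38 cells and 9114 CPM in 670. CXCL5 had 75947 against 73195 CPM at 2 h, but a median of 5.88% of a cell's UMIs in cells with a CSF3R UMI against 7.72% in the others. Its median went the other way in no LPS, with 8.43% against 8.00%, and at 4 h, with 7.18% against 6.58%. At 8 h it was 6.83% in 7 cells with a CSF3R UMI against 5.54% in 60 without. The median depth of the cells with a CSF3R UMI was 3329 UMIs at 2 h against 13498 in the others, and whether those barcodes hold 1 cell or more was not tested. With CSF3R at 0 required, the log2 ratio of CXCL8 in CD14-gated cells was 1.36, 1.22 and 0.67.

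The lymphocyte background was low but not 0. In CD3E-gated cells, which carry a T cell receptor subunit, CXCL8 had 79.3, 223, 102 and 324 CPM in no LPS, 2 h, 4 h and 8 h, and in MS4A1-gated cells, which carry the B cell protein CD20, it had 132, 558, 373 and 413 CPM. CXCL8 was thus 115, 114, 238 and 47.3 times higher in CD14-gated than in CD3E-gated cells. CXCL5 had 419.6, 254, 147 and 760.2 CPM in CD3E-gated cells and was 198, 289, 569 and 120 times higher in CD14-gated cells. The 8 h library had the highest background of all 4 members in CD3E-gated cells, with CXCL2 at 205, 334, 125 and 561 CPM and CXCL3 at 57.2, 71.4, 21.3 and 112 CPM. Subtracting the CD3E-gated level left the log2 ratios of CXCL8 in CD14-gated cells at 1.48, 1.42 and 0.73.

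The share of cells with a UMI was read at equal depth, after thinning each cell to 1000 UMIs. A CXCL8 UMI was then found in 92.3% (90.0 to 94.2), 96.7% (94.0 to 98.4), 97.2% (92.1 to 99.4) and 98.3% (90.8 to 99.96) of CD14-gated cells, and in all CSF3R-gated cells of the 4 libraries, against 6.03%, 9.03%, 4.58% and 14.4% of CD3E-gated cells. Without thinning the shares were 97.3%, 99.4%, 99.2% and 100% in CD14-gated and 20.2%, 28.8%, 19.0% and 39.8% in CD3E-gated cells, whose median depths were 4077, 4100, 4773 and 5259 UMIs. CXCL5 was found in 35.5%, 18.1%, 12.1% and 30.6% of thinned CD3E-gated cells, against 97.3%, 95.7%, 99.1% and 94.8% of thinned CD14-gated cells. Thinning left out 35, 8, 11 and 9 CD14-gated cells and 101, 122, 80 and 51 CD3E-gated cells with fewer UMIs. Shares in CD3E-gated cells are read as background, and differences between libraries in it are not read as expression by lymphocytes.

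The background was not spread evenly over the lymphocytes. Cells in which the 4 members took at least 1% of the UMIs made up 0.228%, 0.726%, 0.232% and 7.65% of CD3E-gated cells and 1.01%, 2.02%, 1.27% and 17.5% of MS4A1-gated cells, against 95.9%, 96.4%, 98.3% and 95.5% of CD14-gated cells. In CD3E-gated cells they held 10.3%, 43.0%, 33.9% and 63.5% of the members' UMIs. At 8 h they were shallow, with a median of 1424 UMIs against 5466 in the remaining CD3E-gated cells. Of the genes of myeloid cells, 87.4% of them carried S100A12 and 73.1% S100A9. S100A8 was carried by 57.1% of them, TYROBP by 45.4% and CXCR1 by 1.68%. Among all CD3E-gated cells at 8 h, 2 of the 10 neutrophil genes were found in at least 10% of cells. The part of mixed barcodes and of free RNA in these values was not tested.

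Over single cells the spread was wide. In CD14-gated cells CXCL8 took a median of 0.735% of a cell's UMIs in no LPS (5th to 95th percentile 0.042 to 2.31), 2.64% at 2 h (0.262 to 14.1), 2.36% at 4 h (0.453 to 12.4), and last 1.11% at 8 h (0.093 to 4.97). The upper end thus lay far above the median at 2 h and 4 h. In CSF3R-gated cells the medians were 4.06%, 9.58%, 7.89% and 10.4%. CXCL5 had medians of 8.05%, 7.47%, 6.78% and 5.94% in CD14-gated cells, lower at each time, although its summed level was highest at 8 h. Taken over cells with equal weight, the mean of CXCL5 had a log2 ratio of −0.19, −0.20 and −0.22 to no LPS. The 4 members together reached 49.9% of the UMIs in 1 CD14-gated cell at 2 h.

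**Figure D3:**
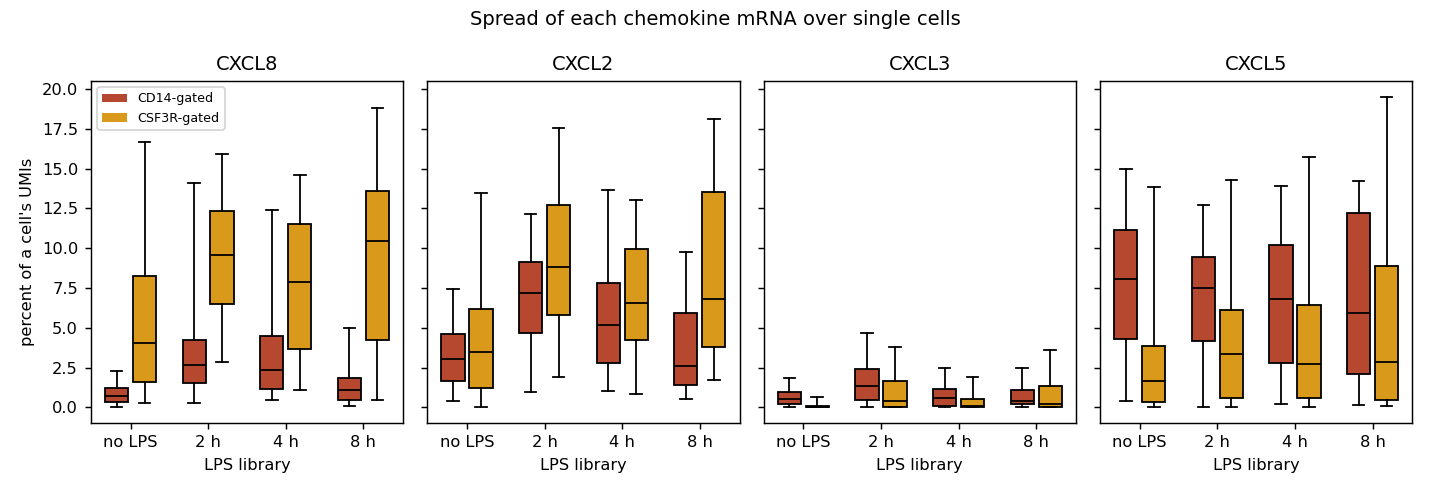
Percent of a cell's UMIs taken by each member in CD14-gated and CSF3R-gated cells of the 4 libraries. Boxes show the quartiles with the median as a line, and whiskers the 5th and 95th percentiles. The CXCL8 median of CSF3R-gated cells lies above that of CD14-gated cells in all 4 libraries, and the CXCL5 median lies below.

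Without thinning, 92.9%, 90.6%, 83.2% and 92.5% of CD14-gated cells carried all 4 mRNAs in no LPS, 2 h, 4 h and 8 h, and 23.5%, 68.6%, 55.7% and 72.7% of the much shallower CSF3R-gated cells did. Across CD14-gated cells the members' shares of the UMIs went up and down together to a varying degree. As a description, Spearman's correlation of CXCL8 with CXCL2 was 0.73 over 708 cells in no LPS, 0.66 over 308 at 2 h, 0.67 over 119 at 4 h and 0.85 over 67 at 8 h. CXCL8 with CXCL5 gave 0.51, 0.11, 0.14 and 0.57, and CXCL8 with CXCL3 gave 0.49, 0.32, 0.00 and 0.57, so both pairs were weakest at 2 h and 4 h. In CSF3R-gated cells CXCL8 and CXCL2 gave 0.67, 0.29, 0.58 and 0.56, and no other pair exceeded 0.33. Cells of 1 library share its blood pool, preparation and depth, and these values carry no test.

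Summed over all cells the members stood otherwise. CXCL5 had 18431 CPM in no LPS and 8037, 4142 and 6524 CPM at 2 h, 4 h and 8 h, with log2 ratios of −1.20, −2.15 and −1.50. CXCL2 had 7801, 8295, 3379 and 4317 CPM (0.09, −1.21 and −0.85), CXCL3 had 1617, 1980, 540.3 and 833 CPM (0.29, −1.58 and −0.96), and CXCL8 had log2 ratios of 0.80, −0.03 and 0.00. In such sums fewer cells of a type and less RNA per cell cannot be told apart, and here the CD14-gated class made up 9.05% of cells in no LPS and 1.61% at 4 h. No member was at least 2-fold higher over all cells, beside 1.03%, 1.4% and 0.513% of 11103, 11028 and 10713 genes. At least 2-fold lower were CXCL5 at 2 h, 3 members (CXCL2, CXCL3 and CXCL5) at 4 h and CXCL5 at 8 h, beside 2.69%, 4.64% and 3.2% of all genes.

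The cells that held the chemokine UMIs also differed between libraries. CD14-gated cells held 68.6% of all CXCL8 UMIs in no LPS and 46.8%, 30.6% and 25.3% at 2 h, 4 h and 8 h. CSF3R-gated cells held 3.68%, 8.41%, 13.4% and 17.8% of them while making up 0.652%, 1.06%, 1.19% and 0.967% of the cells. For CXCL5 the share in CD14-gated cells was 78.9%, 68.1%, 58.1% and 53.7%, and in CSF3R-gated cells 0.234%, 2.02%, 4.24% and 3.62%. Cells with markers of more than 1 lineage held 17.3% to 31.0% of the CXCL8 UMIs, and cells with no gate marker or a single CD14 UMI held 7.81%, 18.5%, 18.1% and 28.6%. In this last class 13.97%, 18.9%, 11.1% and 56.1% of cells had at least 1% of their UMIs in the 4 members, with a median depth of 1009, 1113, 1188 and 1093 UMIs.

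**Figure D4:**
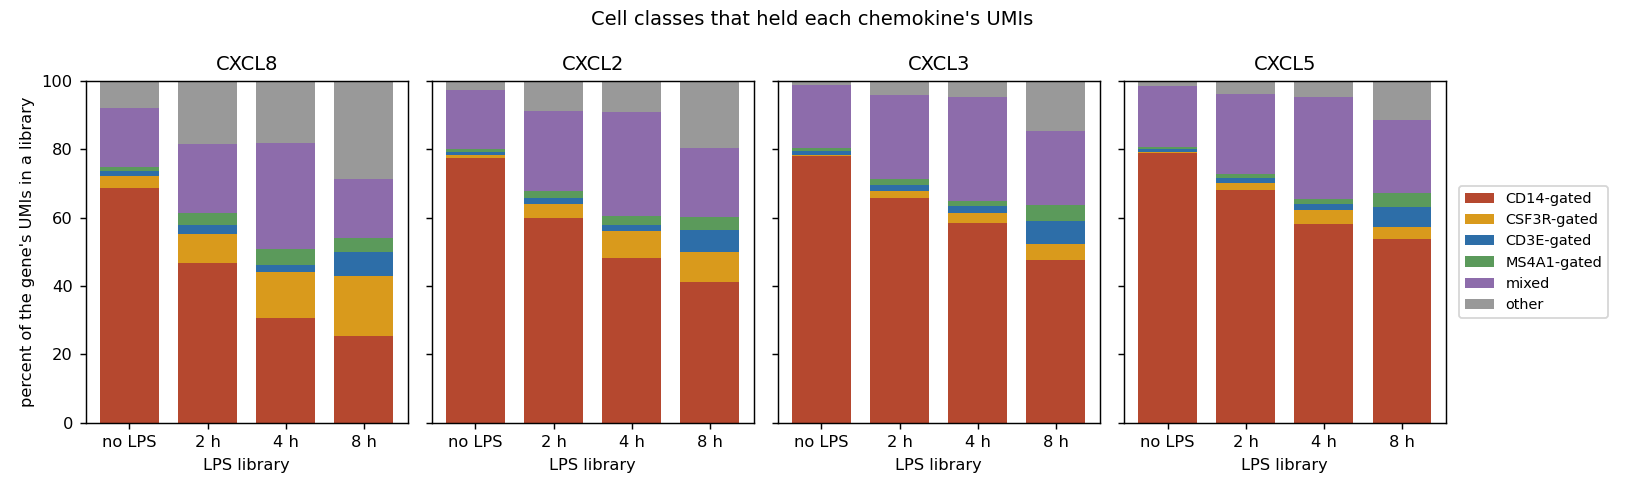
Percent of each member's UMIs in a library that lay in CD14-gated, CSF3R-gated, CD3E-gated, MS4A1-gated, mixed and other cells (stacked to 100%). The part of CD14-gated cells was largest in no LPS for all 4 members, 68.6% for CXCL8 and 78.9% for CXCL5, and smallest at 8 h.

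GRO1, a CXCR2 ligand, was above no LPS in both myeloid gates at all 3 times. It had 13271 CPM in no LPS and 38566, 24799 and 20783 CPM at 2 h, 4 h and 8 h in CD14-gated cells, with log2 ratios of 1.54, 0.90 and 0.65. In CSF3R-gated cells it had 15155, 85555, 48517 and 66359 CPM, with log2 ratios of 2.50, 1.68 and 2.13. Of the 5 other neutrophil or platelet CXC chemokines listed, GRO1 alone was named in the tables. Of 8 further CXC chemokines, CXCL16, which attracts T cells, was the only one with enough UMIs at all times in CD14-gated cells, with log2 ratios of 0.37, 0.17 and −0.07. CXCL13, a B cell attractant, had 5.93 CPM in no LPS and 44.3 CPM at 4 h, but its 51 UMIs at 4 h lay in 0.840% of the 119 cells and its 40 in no LPS in 0.282% of 708, which is too few cells to compare.

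Of the receptors, CXCR1 was the only one with at least 50 UMIs in the gated classes. In CSF3R-gated cells it had 1083 CPM in no LPS and 514, 713 and 580 CPM at 2 h, 4 h and 8 h, with log2 ratios of −1.07, −0.60 and −0.90, from 71, 90, 110 and 42 UMIs. In CD14-gated cells it had 26, 57, 83 and 4 UMIs, from sums of 6740575, 3569199, 1151401 and 641428 UMIs. Its log2 ratio there was 1.80 at 2 h and 3.91 at 4 h, with too few UMIs for a ratio at 8 h. Among all genes of these cells, 4.43% at 2 h and 5.36% at 4 h were at least 2-fold higher. CXCR2, the receptor that all 4 ligands can bind, had 8, 24, 24 and 10 UMIs in CSF3R-gated cells and 2, 29, 13 and 4 in CD14-gated cells, too few to compare.

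Cytokines that act on neutrophils or raise these chemokines were higher in CD14-gated cells at 2 h. All 6 of the 8 listed that were tested were at least 2-fold higher, beside 4.43% of all genes. At 4 h 2 of 5 were, beside 5.36% of all genes, and at 8 h 1 of 5, beside 3.51%. CSF3, which drives the production of neutrophils in the bone marrow, had 365 CPM in no LPS and 4771, 2333 and 1537 CPM at 2 h, 4 h and 8 h. IL6 had 1242, 4834, 1330 and 1021 CPM, IL1A had 207, 1108, 471 and 304 CPM, and IL1B had 9066, 21706, 15951 and 16342 CPM. TNF had 76.3, 156, 99.01 and 129 CPM. IL6 was thus near no LPS again at 4 h, while CSF3 was still above it at 8 h with a log2 ratio of 2.07. In CSF3R-gated cells IL1A had 229, 4228, 1789 and 1450 CPM.

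Of 13 transcription factors and inhibitors of the pathway, 7 were at least 2-fold higher in CD14-gated cells at 2 h, beside 4.43% of all genes. At 4 h 6 of the 12 tested passed and at 8 h 2 of 12, beside 5.36% and 3.51% of all genes. The 7 at 2 h were NFKB1, NFKB2, REL and RELB, subunits of NF-kB, and the inhibitors NFKBIA and TNFAIP3 with the co-factor NFKBIZ. TNFAIP3 had 289, 1272, 951 and 620.5 CPM, and it and REL were the 2 still past 2-fold at 8 h. FOS, a subunit of AP-1, was lower at 2 h and 4 h, with 58.7, 14.6 and 12.2 CPM in no LPS, 2 h and 4 h. RELA, the partner of NFKB1, had log2 ratios of −0.53, 0.04 and −0.19. The list median was 1.03 at 2 h, beside −0.54 for all genes.

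Of 8 genes that act on the stability of such mRNAs, ZC3H12A, an endonuclease that cuts cytokine mRNAs, was at least 2-fold higher in CD14-gated cells at each time, with 30.0, 152, 113 and 77.95 CPM. The share of all genes past that fold was 4.43%, 5.36% and 3.51%. ZFP36L2, ZFP36L1 and ELAVL1 were at least 2-fold lower at 2 h, with log2 ratios of −2.22, −1.44 and −1.16, and ZFP36L2 also at 4 h. Of all genes, 20.1% were at least 2-fold lower at 2 h and 10.6% at 4 h. These ratios are without TMM scaling, which moved the median of all genes at 2 h from −0.54 to −0.07. ZFP36, which binds AU-rich elements and starts decay, had 145, 202, 209 and 171 CPM. The list median of −0.37 at 2 h was close to the −0.54 of all genes.

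The genes most like each member were found over 20 sums, made of 4 libraries and 5 cell classes, by Pearson's correlation of log2(CPM + 1) among 9861 genes. For CXCL8 they were IL1RN, the interleukin 1 receptor antagonist, at 0.995, then IER3, CDA, PTX3 and VEGFA. CXCL2 came closest to CYP3A4, GRO1 and PTX3, at 0.995, 0.992 and 0.991. CXCL3 was most like CXCL5 (0.979) and SLC2A6 (0.977), and CXCL5 was most like PDXK (0.994) and SLC39A8 (0.989). CXCL8 and CXCL5 correlated at 0.916, and CXCL8 and CXCL2 at 0.980. The sums share libraries and most of the variation lies between myeloid and lymphocyte classes, so these values only rank genes.

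Gene-level accessibility could be read for 3 members. CXCL8 and CXCL5 were listed in the scATAC-seq tables of 2 h and 4 h, CXCL2 in those of 2 h, 4 h and 8 h, and CXCL3 in none. No member was listed in the no LPS table, which held 975012 counts against 11957904 to 30250143 in the others, so no comparison with no LPS could be made. A gene that is not listed has no value here, since other genes are listed with 0 counts.

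Scaled to the counts of the library, CXCL8 had 30.9 CPM (29.0 to 33.0) at 2 h and 17.6 (16.0 to 19.2) at 4 h, a log2 ratio of −0.81 (−0.98 to −0.65). Counted as barcodes with a count, it was found in 232 of 4172 (5.56%, 4.88 to 6.30) at 2 h and 156 of 3231 (4.83%, 4.11 to 5.62) at 4 h. That is a log2 ratio of −0.20, and the 2 intervals overlapped. CXCL2 had 20.1, 20.3 and 11.5 CPM at 2 h, 4 h and 8 h, in 5.13%, 5.57% and 1.77% of barcodes. CXCL5 had 3.60 and 2.01 CPM at 2 h and 4 h, in 1.29% and 1.021% of barcodes. The median log2 ratio of 13100 genes listed at both times was −0.002, and 1.44% of them were at least 2-fold lower at 4 h, which no member was. CXCL8 was thus lower in CPM, while CXCL2 was level between the same tables. GRO1, which is not a member, was at least 2-fold lower at 4 h than at 2 h. Its log2 ratio was −1.23 (−1.43 to −1.04), and 5.85% (5.16 to 6.60) and 3.81% (3.17 to 4.53) of barcodes had a count. Even values made up 89.8% and 71.5% of its values. The intervals of the CXCL8 and GRO1 ratios are too narrow, because counts often came in pairs. No direction is given for CXCL8 by barcodes. Even values made up 96.1% of the CXCL8 values at 2 h and 64.1% at 4 h. They made up 72.2% and 45.5% of those of CXCL5, and 89.3% and 89.4% of those of CXCL2. The form of the counts thus differed between the tables for the members that were lower in CPM at 4 h, and its part in the ratios was not tested. The barcodes were not divided into classes, so a smaller share of CD14 cells and less accessible genes cannot be told apart, and values are not compared between genes.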

How the data were processed

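The deposited scRNA-seq values are raw UMI counts by gene and cell barcode, which the authors obtained with Cell Ranger 3.1.0 on ARS-UCD1.2. The deposited scATAC-seq values are counts by gene and barcode, and the rule by which fragments were counted is not given in the sources used here. The limits were taken from the study's methods, with its UMI limit read as a minimum, and kept cells that had 200 to 3000 genes, 200 UMIs or more and a mitochondrial share below 20%. Genes found in few cells were not removed, and the study's set of cells was not reproduced. Counts were summed per library and gate and scaled to CPM, and ratios used a pseudocount of 1 CPM, except for scATAC-seq. Poisson and binomial intervals are exact. Genes needed at least 50 UMIs over both sums (200 for likeness). No doublet caller was run, and the gates leave out cells with both myeloid and lymphocyte markers, or with both CD3E and MS4A1, while CD14-gated cells may carry CSF3R. Groups came from the labels. With 1 library per treatment there were no replicates and no test. edgeR 4.0.16 and DESeq2 1.42.0 gave scaling factors only. The ratio step was tested on simulated data. Python 3.11.15 and R 4.3.3 were used. The members, lists and markers were chosen with earlier results of these data known. The genes named are the members, those of 6 lists by role, and the 5 genes most like each member. Alternatives covered scaling, pseudocount, filters, gates, thinning and the unit of counting.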

Additional observations from a re-analysis of the deposited data

Results flagged for a closer look

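Opposite directions in 2 cell classes under the same contrast with no LPS, each with an interval that leaves out 0, were found for 3 members, and none of these differences was tested. At 2 h CXCL5 had a log2 ratio of 0.81 in CSF3R-gated cells and −0.18 in CD14-gated cells, and the latter turned positive with TMM or DESeq2 scaling. At 4 h CXCL2 had −0.71 in CD3E-gated and 0.72 in CD14-gated cells. CXCL3 at 4 h had −1.38 in CD3E-gated and −1.08 in MS4A1-gated cells, against 0.61 in CD14-gated cells. CXCL5 at 4 h had −1.50 in CD3E-gated and −1.46 in MS4A1-gated cells, against 0.01 in CD14-gated cells, a value that turns negative under other gates and filters, so that no direction is given for it. The values of CD3E-gated and MS4A1-gated cells lie at the level read as background.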

How the results depend on the processing

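No paired analysis was possible because each treatment had 1 library per assay, and leaving out a replicate was not possible for the same reason. Log2 ratios in CD14-gated cells under all settings but that of all cells ranged for CXCL8 from 1.36 to 2.17 at 2 h, 0.98 to 2.06 at 4 h and 0.38 to 0.94 at 8 h. CXCL5 at 2 h turned to 0.32 (TMM) and 0.38 (DESeq2). CXCL5 at 4 h turned to −0.025 (no upper limit on genes), −0.062 (CD14 at least 1 UMI), −0.024 (CSF3R at 0) and −0.20 (mean of single cells), and at 8 h to −0.17 (CD14 at least 1 UMI) and −0.22 (mean of single cells). Added after seeing the data, cells with lymphocyte markers gave CXCL5 −0.091 and −0.048 at 4 h and 8 h. Without the upper limit on genes as well they gave CXCL5 −0.23 and −0.34, and CXCL2 −0.039 and CXCL3 −0.14 at 8 h. Over all cells CXCL8 had −0.035 at 4 h, CXCL2 −1.21 and −0.85, CXCL3 −1.58 and −0.96, and CXCL5 −2.15 and −1.50 at 4 h and 8 h. The number of members at least 2-fold higher, 2 at 2 h and 1 at 4 h, was 3 at 2 h with TMM, DESeq2, the members left out of the totals (also added after seeing the data) or the mean of single cells, as CXCL2 then had 1.45, 1.51, 1.08 and 1.06. It was 0 and 0 over all cells and 0 at 4 h with lymphocyte markers allowed and no upper limit. The cause was not tested, except that all cells hold other cell types. Genes at least 2-fold higher numbered 271, 312 and 200 at 2 h, 4 h and 8 h, and outside the setting of all cells ranged from 171, 205 and 90 (10 CPM as pseudocount) to 541 (DESeq2), 745 and 1100 (no minimum of 50 UMIs). Genes at least 2-fold lower numbered 1228, 616 and 349, and ranged from 297, 184 and 94 to 1955, 1320 and 1167 under the same pseudocount and without the minimum. TMM gave 495, 418 and 222 higher and 444, 436 and 318 lower. Thinned to 1000 UMIs, a CXCL8 UMI was found in 92.3% of CD14-gated cells in no LPS and 96.7% at 2 h. The CXCL8 accessibility ratio moved to −0.20 by barcodes, and a minimum of 500 counts per barcode removed none. CSF3R-gated values rest on 33 to 105 cells per library, and their ratios were not computed under other scaling, pseudocount, filters or gates.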
